A study of Homo sapiens with 8 samples.

Results

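The comparison described here is that of HEK293T cells in sufficient medium profiled with cycloheximide (Suff CHX) and without it (Suff no CHX), taken transcript by transcript. HEK293T is an established human embryonic kidney cell line immortalized with SV40 large T antigen, and the sufficient medium held all amino acids that the deficient media lacked. Ribosome profiling sequences the short mRNA fragments, or footprints, that ribosomes protect from nuclease, so that footprints on a message reflect both how much of the mRNA there was and how densely ribosomes loaded it. No measurement of mRNA levels was used here, so these cannot be told apart. The deposited value is RPKM, a read count divided by the kilobases of the coding sequence and by the library's total over all coding sequences. In the Suff CHX sample cycloheximide was given to the living cells before collection and was in the buffers, and in the Suff no CHX sample the drug was left out. The series held 8 libraries, 1 for each of 4 media (Suff, and media without arginine, leucine or methionine, here Arg-, Leu- and Met-) with and without the drug. The sample labels give the starvation in Arg-, Leu- and Met- as overnight.

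A transcript was compared where the same Ensembl identifier was listed in both sufficient libraries and the mean of both RPKM values was at least 10. Of 5637 transcripts listed with cycloheximide and 11439 listed without it, 3910 were in both and 3729 reached the mean of 10. The other 181 lay below it. Just above it were WNK1 (8.59 RPKM with cycloheximide and 11.4 without), ARHGAP11A (8.15 and 12.03) and SUPT6H (5.81 and 14.4), and just below it were ICE2 (8.62 and 11.1), CNTNAP2 (14.0 and 5.82) and DPP8 (9.42 and 10.4). Differences are given as the log2 ratio of RPKM with cycloheximide to RPKM without it, after 1 was added to each, so that a positive value is higher with the drug. With 1 library per condition there was no replicate and no test for the sufficient pair on its own, and a difference was described as large where it reached 2-fold. The drug cannot be told apart from the culture behind each library, of which there was 1 sample per condition, or from the handling of the libraries, because the series without cycloheximide had duplicate reads removed, a lower cutoff on reads and the stop codon in the coding length, and the series with cycloheximide did not.

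Cycloheximide binds the large ribosomal subunit and blocks the movement of the tRNA through the ribosome, which holds elongating ribosomes where they are. Without the drug, ribosomes can go on translating while cells are collected and lysed, and initiation and elongation in the last moments shape the profile. The drug acts on cytosolic ribosomes, whereas mitochondrial ribosomes, which resemble those of bacteria, are known to resist it.

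The sufficient libraries held 2560280 reads on coding sequences with cycloheximide and 3139745 without it, recovered from the whole-read steps of the values. The smallest listed transcript had 64 reads with cycloheximide and 5 without it. Of 8 markers of HEK293T cells, 5 were listed with cycloheximide and 7 without it, among them VIM at 97.6 and 450 RPKM, NEFL at 37.6 and 58.7 and LIN28B at 90.1 and 57.9. PAX2 was in neither library, and KRT8 and KRT18 were in the library without the drug. Markers of liver, blood and endothelium were in neither, and of 3 fibroblast markers COL1A1 was in both. Since the values are shares of a library's footprints, fewer ribosomes on a transcript and more on the others cannot be told apart.

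Footprint levels differed by less than 2-fold for 70.1% of the 3729 transcripts. The log2 ratio had a median of 0.21, quartiles of −0.60 and 0.74, an SD over transcripts of 1.04 and a range from −6.36 to 6.03. At least 2-fold higher with cycloheximide were 511 transcripts, or 13.7% of those compared, and at least 2-fold lower were 605, or 16.2%. These shares are the background for each gene list below. Transcripts with many expected reads, through a high level or a long coding sequence, had another background. Among the 1305 compared transcripts whose level without cycloheximide would give at least 4 times the cutoff of 64 reads with it, the median was −0.32. Of these, 9.96% were at least 2-fold higher and 33.3% at least 2-fold lower. They also had to be listed with cycloheximide, which left out 94 transcripts with as many expected reads, of genes not listed with it. The level without the drug is part of the ratio, so this set is not neutral. When the library with cycloheximide was rescaled so that the compared transcripts summed equally in both libraries, the median moved to −0.15, the count of higher transcripts to 184 and that of lower ones to 883, which lowered the share of higher calls among all calls from 45.8% to 17.2%. Centring on the median gave 291 higher and 755 lower, a share of 27.8%. On these other scales directions near 0 turn, so each list is given beside the median of all transcripts.

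**Figure D1:**
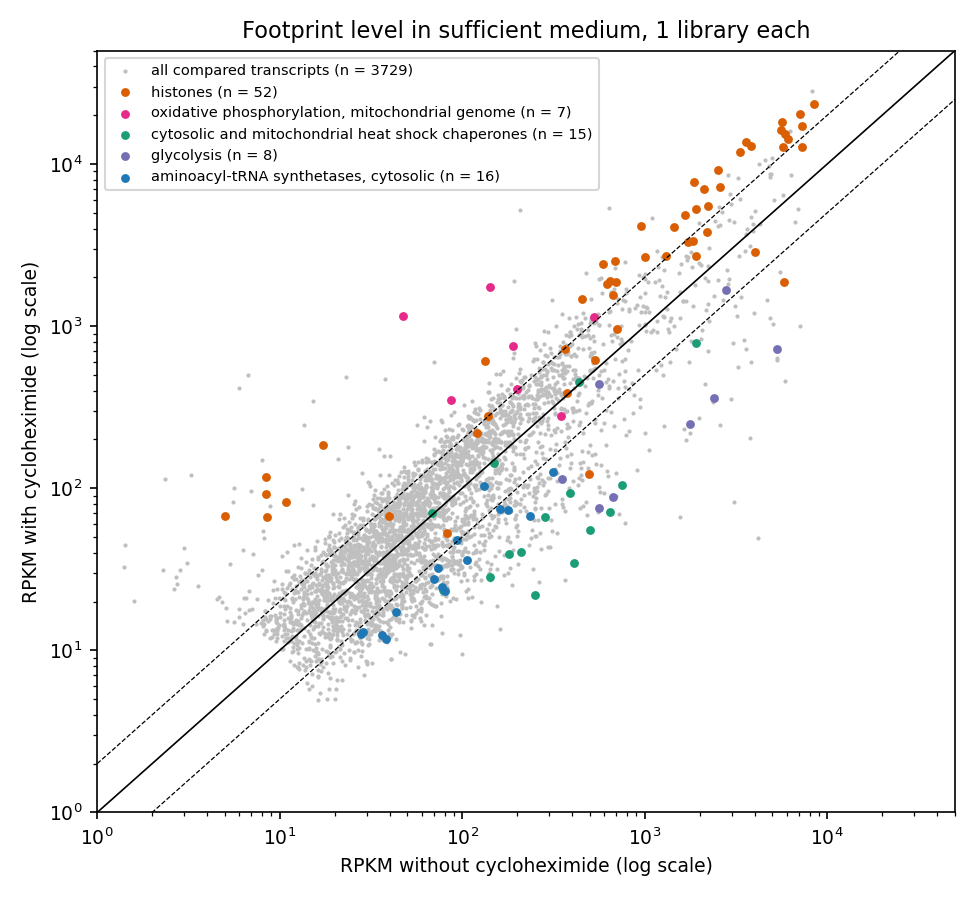
Footprint level of each transcript in sufficient medium, RPKM without cycloheximide on the x axis and with it on the y axis, both on log scales, 1 point per transcript and 1 library per axis. The solid line marks equal levels and the dashed lines 2-fold differences. Histones and mitochondrially encoded transcripts lie mostly above the upper dashed line, and glycolytic enzymes, heat shock chaperones and aminoacyl-tRNA synthetases mostly below the lower one.

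Sequence shared between transcripts moved with the largest differences. Both series kept only reads that aligned to 1 place, so a transcript that shares sequence with another one in the reference loses reads there. Among the 29 transcripts at least 8-fold higher with cycloheximide, 19 overlapped coding exons or read-through exons of another gene, against 250 of all 3729 (6.70%). Among the 20 at least 8-fold lower, 14 belonged to genes with over 1 transcript listed in the series with cycloheximide, against 179 of all. Transcripts of such genes had a median log2 ratio of −0.65, and those overlapping another gene 0.34. Only 3 of the 29 and 6 of the 20 passed all the criteria for unshared sequence given below. They were MT-ND5, PTRHD1 and COL1A1 among the higher ones, and EEF1A1, HSP90AB1, MYH9, MYH10, HSPD1 and YWHAZ among the lower ones. Whether shared sequence made the other differences was not tested. Of the 29, 20 had under 64 reads without the drug, COL1A1 among them with 22. The cutoff of 64 reads with the drug admitted these only if they were higher with it. The criteria were chosen after the values were seen: at least 99% of the 28-base words of the coding sequence found in 1 listed transcript, 1 listed transcript for the gene, and no overlap with another gene. They left 3086 transcripts, called unique below, with a median log2 ratio of 0.21, 385 at least 2-fold higher (12.5%) and 470 at least 2-fold lower (15.2%). The criteria on words and on transcripts per gene counted listed transcripts only. Sequence that a unique transcript shares with unlisted transcripts of the reference was not examined.

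Several transcripts at the ends of the range belonged to genes with further transcripts listed with cycloheximide, or overlapped another gene. RPL23A, a protein of the large ribosomal subunit, was listed at 49.7 RPKM with cycloheximide and 4172 without it, a log2 ratio of −6.36. When the highest transcript of the gene in each library was taken in place of the same identifier, it was −0.57. COX4I1, a subunit of cytochrome c oxidase, was at 66.3 and 1571 RPKM (−4.55), and EIF3K, a subunit of the initiation factor eIF3, at 60.9 and 777 RPKM (−3.65). Taken by gene, these became 0.29 and 0.37. RPS3A, of the small subunit, stayed lower by gene, at −2.44 against −5.20. At the other end EEF1G, a subunit of the complex that reloads the elongation factor eEF1A with GTP, was at 484 RPKM with the drug and 23.0 without it (log2 ratio 4.33), and it overlaps an annotated read-through transcript. RPP21 (417 and 5.96 RPKM), PEDS1 (114 and 2.35) and MYCBP (346 and 15.3) also overlap another gene.

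Unique transcripts that differed most were examined for the sequence around their start codons, since profiles made with cycloheximide are known for dense footprints there. The values cover whole coding sequences and do not show where in them the reads lay. The windows below run from 9 bases before the start codon to 18 bases after it, 5′ to 3′ in the sense of the mRNA, from GENCODE release 44 on GRCh38. Capitals mark the base at position −3, the start codon and the base at position +4, which are the positions that matter most in the consensus described by Kozak. The first 3 transcripts were the highest with cycloheximide and the last 3 the lowest, among unique transcripts with at least 64 reads in both libraries and the same direction in the Arg- and Leu- pairs, leaving out the mitochondrial genome.
PTRHD1: gatcccAagATGCaccggggagtaggtccg
STMP1: accgacAtcATGCtccagttcctgcttgga
ATP5ME: agggacAagATGGtgccaccggtgcaggtc
EEF1A1: aaagccAaaATGGgaaaggaaaagactcat
HSP90AB1: gctcctCcgATGCctgaggaagtgcaccat
HSPD1: cccgcaGaaATGCttcggttacccacagtc
These transcripts lie at chr2:24789728-24793391 (PTRHD1, minus strand), chr7:135662514-135676416 (STMP1, plus), chr4:672436-674276 (ATP5ME, minus), chr6:73515750-73521018 (EEF1A1, minus), chr6:44247866-44253883 (HSP90AB1, plus) and chr2:197486584-197499840 (HSPD1, minus).

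The highest 3 all had A at position −3, as EEF1A1 did. Over the unique transcripts, those with a purine at −3 (2664) had a median log2 ratio of 0.20 and those without (388) 0.26. With G at +4 the median was 0.21 (1712 transcripts) and without it 0.18 (1340). With an ATG in the annotated sequence upstream of the start codon it was 0.28 (1124) and without one 0.16 (1928). These differences were small beside the quartiles of the log2 ratio.

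PTRHD1, a small peptidyl-tRNA hydrolase domain protein, was at 599 RPKM with cycloheximide and 70.0 without it, 8.55-fold higher (95% interval 6.87 to 10.75). This and the following intervals are exact binomial intervals of the recovered reads, and they cover counting error only, since reads without molecular identifiers are not independent molecules. STMP1, a short mitochondrial transmembrane protein, was 4.63-fold higher (3.83 to 5.61) at 1443 and 312 RPKM. ATP5ME, a short subunit of the mitochondrial ATP synthase, was 4.202-fold higher (3.87 to 4.57) at 4621 and 1100 RPKM. The coding sequences of these 3 transcripts were 423, 144 and 210 bases long. Next came MFAP2, a protein of extracellular microfibrils (158 and 37.5 RPKM), FAM104B (260 and 66.2), TLE5, a transcriptional corepressor (159 and 40.5), BEX4 (678 and 193), the protease inhibitor CSTB (1961 and 560) and MED31, a Mediator subunit (264 and 76.4).

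The lowest unique transcripts by the same rule had coding sequences from 738 bases (YWHAZ) to 2250 (NOC2L). The rule asked for at least 64 reads with the drug. A transcript far lower with it therefore needed many reads without it, through a high level or a long coding sequence. EEF1A1, the elongation factor that brings aminoacyl-tRNA to the ribosome, was at 203 RPKM with cycloheximide and 3764 without it, 18.5-fold lower (17.2 to 19.96). HSP90AB1, a cytosolic HSP90 chaperone, was at 34.5 and 410 RPKM, 11.9-fold lower (10.3 to 13.8). HSPD1, the mitochondrial HSP60 chaperonin, was at 71.6 and 643 RPKM, 8.98-fold lower (7.997 to 10.1). YWHAZ, a 14-3-3 adaptor, was at 197 and 1691 RPKM and 8.58-fold lower (7.71 to 9.57). They were followed by TAF15 and HNRNPK, which bind RNA, by the glycolytic enzymes PKM, PGK1 and GAPDH, by NOC2L, by the chaperone HSPA8 and by XRCC6, the Ku70 subunit of DNA repair, all with log2 ratios between −2.99 and −2.80. MYH9 and MYH10, the heavy chains of nonmuscle myosin II, were named after their values were seen. MYH9 was at 13.6 and 160 RPKM, 11.8-fold lower (10.3 to 13.7), and MYH10 at 9.47 and 99.2, 10.5-fold lower (8.85 to 12.5). They did not share a direction with the starved media, where log2 ratios in Arg-, Leu- and Met- were 0.15, −1.01 and 2.25 for MYH9 and 0.59, −0.91 and 0.32 for MYH10.

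Histones were the large group that was higher with cycloheximide. Of 52 histone transcripts, 37 were at least 2-fold higher and 2 at least 2-fold lower, with a median log2 ratio of 1.47 against 0.21 over all transcripts. Replication-dependent histone mRNAs end in a stem-loop in place of a poly(A) tail. H1-4, a linker histone, was at 16275 RPKM with the drug and 5558 without it, 2.93-fold higher (2.86 to 2.99). H4C3 was at 20356 and 7116 RPKM, 2.86-fold higher (2.78 to 2.94), and H3C12 at 4061 and 1445, 2.81-fold higher (2.66 to 2.97). The highest, H2BC9 (log2 ratio 3.67) and H2BC6 (3.50), rested on 10 and 6 reads without the drug. The lowest were H2AZ2 (−1.996) and H3-3A (−1.63), variant histones made throughout the cell cycle from polyadenylated mRNA, while H2AZ1 was at −0.49. With the highest transcript of the gene in each library H2AZ2 was at −0.43, so its 2-fold difference rests on the transcript chosen, and H3-3A stayed at −1.63. Neither was unique. Histone copies are near identical, and only 12 of the 52 were unique. These 12 had a median of 1.03, with 7 at least 2-fold higher and none at least 2-fold lower. Of the 12 transcripts with the highest mean RPKM, 10 were histones, the others being RPL37A at 28295 and 8284 RPKM (log2 ratio 1.77) and MIF, a cytokine, at 16043 and 6230 (1.37).

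Transcripts of the mitochondrial genome, translated by mitochondrial ribosomes, were also mostly higher. Of 7 compared, 6 were at least 2-fold higher and none at least 2-fold lower, with a median of 1.99. MT-ND5, a subunit of complex I, was at 1749 RPKM with the drug and 142 without it, 12.3-fold higher (11.5 to 13.3). MT-CO2 and MT-CO1, of cytochrome c oxidase, were at 758 and 190 RPKM (log2 ratio 1.99) and at 1135 and 528 RPKM (1.10). MT-ND4L (4.58) and MT-ATP6 (2.005) overlap a neighbouring coding sequence, as MT-ATP8 (−0.32) does. MT-ND6 was at 1.03. The nuclear genes of the same respiratory complexes had a median of 0.27 over 46 transcripts, with 8 higher and 8 lower by 2-fold. Mitochondrial ribosomal proteins, which are made in the cytosol, had a median of 0.67 over 55 transcripts, with 12 higher, such as MRPL58 (506 and 152 RPKM) and MRPL17 (760 and 253), and 4 lower, such as MRPS9 (31.6 and 89.1).

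Glycolytic enzymes lay at the other end of the gene lists. Of 8 compared, 6 were at least 2-fold lower and none higher, with a median log2 ratio of −2.77. GAPDH was at 721 RPKM with the drug and 5279 without it, 7.32-fold lower (6.98 to 7.69). PKM, pyruvate kinase, was at 88.0 and 674 RPKM, 7.65-fold lower (6.86 to 8.56). PGK1, phosphoglycerate kinase, was at 75.6 and 564 RPKM, 7.47-fold lower (6.54 to 8.56). ENO1 (251 and 1769 RPKM) and LDHB (360 and 2397) were lower by similar amounts but were not unique. TPI1 (1661 and 2788) and PGAM1 (440 and 560), with shorter coding sequences, were 1.68-fold and 1.27-fold lower.

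Chaperones of the cytosol and mitochondria followed. Of 15 heat shock chaperones, 12 were at least 2-fold lower and none higher, with a median of −2.16. HSPA8, the constitutive HSP70, was at 105 and 754 RPKM, 7.17-fold lower (6.55 to 7.86), and HSPA9, its mitochondrial relative, at 39.3 and 180, 4.57-fold lower (3.94 to 5.33). CDC37, the kinase co-chaperone of HSP90, was at 451.5 and 437 RPKM, a ratio of 1.03 (0.959 to 1.11). In the list of the CCT chaperonin and prefoldin, which fold actin and tubulin, 6 of 11 were lower and 1 was higher. The 6 were the CCT subunits CCT5, CCT8, CCT3, CCT6A, CCT4 and TCP1, from −2.53 to −1.43, and the 1 was the small prefoldin subunit PFDN2 (1479 and 510 RPKM, log2 ratio 1.53). Of 27 proteins that fold or translocate proteins in the endoplasmic reticulum, 9 were lower and 2 higher. PDIA3, a disulfide isomerase, was at 44.6 and 232 RPKM and HSPA5, or BiP, at 35.04 and 137. MANF (937 and 279) and SPCS1, a short subunit of signal peptidase (2139 and 478), were the higher ones.

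Other housekeeping lists were lower in the same way. All 16 cytosolic aminoacyl-tRNA synthetases compared had a log2 ratio below 0, and 14 were at least 2-fold lower, from FARSA (67.0 and 237 RPKM, −1.81) to WARS1 (104 and 132.5, −0.35). DNA replication proteins had 11 of 18 lower and none higher, with RPA1 at 21.1 and 107 RPKM, RRM2 at 76.0 and 298 and MCM2 at 18.7 and 72.2. Proteasome subunits had 13 of 25 lower and none higher, led by the base ATPase PSMC1 (19.8 and 126 RPKM). Enzymes of cholesterol and fatty acid synthesis had 9 of 17 lower and none higher, with FASN at 12.7 and 77.8 RPKM and SCD at 134 and 487. Splicing proteins of the hnRNP and SR families had 7 of 14 lower and none higher, with HNRNPK at 90.1 and 692 RPKM. Nucleolar proteins of ribosome biogenesis had 9 of 24 lower, such as nucleolin (NCL, 111 and 407 RPKM), and 1 higher, the very short NOP10 (1904 and 707 RPKM, 2.69-fold). The medians were −1.29 for the synthetases, −1.40 for DNA replication, −1.05 for the proteasome, −1.14 for lipid synthesis, −1.16 for splicing proteins and −0.85 for ribosome biogenesis. Against the 33.3% of well-covered transcripts that were lower, the shares of the lists' well-covered members were 87.5% for synthetases, 80% for heat shock chaperones, 75% for glycolysis, 77.8% for lipid synthesis, 60% for DNA replication, 52.2% for the proteasome and 50% for splicing proteins. Ribosome biogenesis (36.4%), proteins of the endoplasmic reticulum (34.8%), initiation factors (31.2%) and small subunit proteins (31.8%) were near that background, and large subunit proteins were at 42.4%. That background was not matched for coding length. Of the well-covered transcripts, 11.5% of those with 135 to 546 bases were lower and 60.5% of those with 1794 to 12387 bases.

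**Figure D2:**
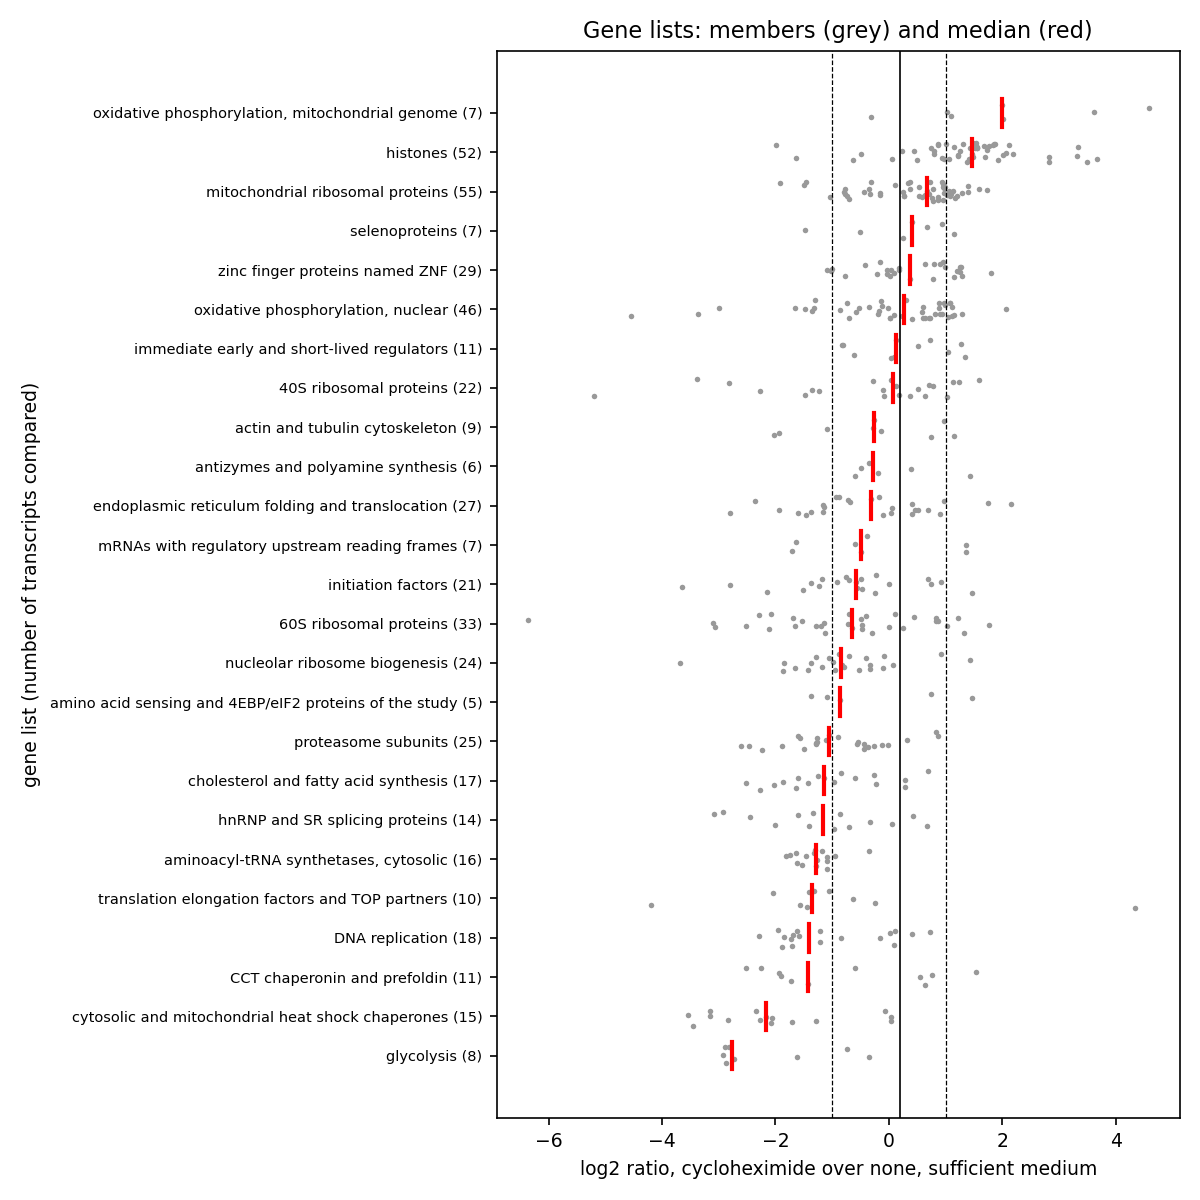
Log2 ratio of cycloheximide over none in sufficient medium (x axis) for the transcripts of 25 gene lists (y axis, with the number of transcripts compared), each grey point 1 transcript and each red bar the list's median. The solid line is the median of all 3729 transcripts and the dashed lines mark 2-fold. Medians run from −2.77 for glycolysis to 1.99 for the mitochondrial genome.

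The translation machinery itself was divided. Of 10 elongation factors and other mRNAs with a terminal oligopyrimidine tract, 7 were lower, among them EEF2, the translocase (230 and 576 RPKM, 2.51-fold lower, 2.37 to 2.66), and 1, EEF1G, was higher. Of 21 initiation factors and their regulators, 7 were lower, such as EIF4A1, the helicase of the cap-binding complex (339 and 2368 RPKM, overlapping another gene), and 1 was higher. That was EIF4EBP1, the repressor that holds eIF4E when mTORC1 is inactive and a protein the study examined, at 780 and 280 RPKM, 2.78-fold higher (2.43 to 3.19). In Arg-, Leu- and Met- the log2 ratio of EIF4EBP1 was −0.84, 0.51 and 0.04, so no starved pair repeated the 2-fold rise. EIF4EBP2 was at 187 and 111 RPKM. Ribosomal proteins spread widely. The 33 transcripts of the large subunit had a median of −0.64, with 4 higher and 14 lower, and the 22 of the small subunit 0.08, with 4 higher and 7 lower. Only 14 and 10 of them were unique, with medians of −0.23 and 0.15. Among these, RPL7A (824 and 3493 RPKM) and RPL4 (707 and 2235) were lower, while RPL37A (28295 and 8284) and RPS19 (9772 and 4799) were higher.

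Messages known for rapid turnover or regulated initiation showed no common direction. Of 11 immediate early and short-lived regulators, 3 were at least 2-fold higher, namely SRF (93.8 and 36.3 RPKM), JUND (87.1 and 35.4) and ID3, and none was at least 2-fold lower. JUN was at 64.9 and 99.8. Of 7 mRNAs whose translation depends on upstream reading frames, ATF4, the main effector of eIF2 phosphorylation, was at 76.0 and 251 RPKM, 3.30-fold lower (2.83 to 3.86), and EPRS1 was lower too, whereas CEBPG (196 and 75.9) and CEBPB (65.3 and 24.9) were higher. Polyamine enzymes and antizyme proteins had 1 of 6 higher, spermidine synthase (SRM, 1136 and 421 RPKM). Selenoproteins had 1 of 7 higher (SELENOM) and 1 lower (SELENOF, 242 and 680 RPKM). Of 29 zinc finger proteins, 8 were higher and 3 lower. Of all genes of that name, 342 were listed without the drug and 40 with it. Of 9 actin and tubulin cytoskeleton transcripts, 3 were lower and the very short TMSB10 (6551 and 2949 RPKM) was higher. SESN2, a leucine sensor, was at 20.1 and 53.4 RPKM, and LARS1, the leucyl-tRNA synthetase, at 13.0 and 28.7.

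The log2 ratio fell with the length of the coding sequence. In 5 equal classes of the unique transcripts, medians were 0.73 (135 to 669 bases), 0.48 (672 to 984), 0.16 (987 to 1347), −0.16 (1350 to 1932) and −0.56 (1935 to 12387). In the shortest class 27.8% were at least 2-fold higher and 1.29% at least 2-fold lower, and in the longest class 3.08% and 31.3%. Spearman's rho was −0.49 over the 3086 unique transcripts and −0.44 over all 3639 with a coding length. Within each of 5 classes of codon composition it was between −0.50 and −0.48. Transcripts share a library and are not independent, so these are descriptions. The cutoff on reads admits a short sequence with cycloheximide only at a high RPKM. Therefore the classes were also formed from the 1305 well-covered transcripts described above, which had to be listed with the drug as well. There the medians were 0.69, 0.14, −0.15, −1.08 and −1.18 from the shortest to the longest class.

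Over the 25 gene lists, which differ in size, Spearman's rho between the median coding length and the median log2 ratio was −0.68. The median length was 393 bases for histones, 1722 for heat shock chaperones and 1930.5 for aminoacyl-tRNA synthetases. Several lists stood away from this relation. Glycolytic enzymes, at 1131 bases, had the lowest median (−2.77), whereas zinc finger proteins at 1458 bases were at 0.37 and proteins of the endoplasmic reticulum at 1371 bases at −0.31. The value for zinc finger proteins depends on the set taken, since few of them passed the cutoff on reads with cycloheximide. Their 19 unique transcripts had a median of 0.09, and the 4 well-covered ones −0.52, with 1 higher and 2 lower by 2-fold. Large subunit proteins, at 480 bases, were at −0.64 and small subunit proteins, at 459 bases, at 0.08. The part of length in the lists' medians was not tested.

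Codon composition also went with the ratio. In 5 equal classes by the share of G or C at codon position 3, from 23.9% to 96.7%, the unique transcripts had medians of −0.24, 0.07, 0.26, 0.29 and 0.54, and rho was 0.25. In the other media the same 5 classes ran differently, from 0.29 to −0.21 in Arg- (rho −0.33, n = 2980), from 0.09 to 0.23 in Leu- (0.10, n = 3077) and from −0.14 to 1.34 in Met- (0.54, n = 1111). The length trend kept its sign in all pairs, with rho of −0.23 in Arg-, −0.42 in Leu- and −0.14 in Met-, and medians from the shortest to the longest class of 0.27 to −0.08, 0.43 to −0.30 and 0.84 to 0.46. Over the unique transcripts in Suff, rho of the log2 ratio was −0.08 with the RPKM without cycloheximide, −0.44 with the recovered reads without it (n = 3026), which grow with length, and 0.44 with the RPKM with it. Both levels are part of the ratio itself.

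**Figure D3:**
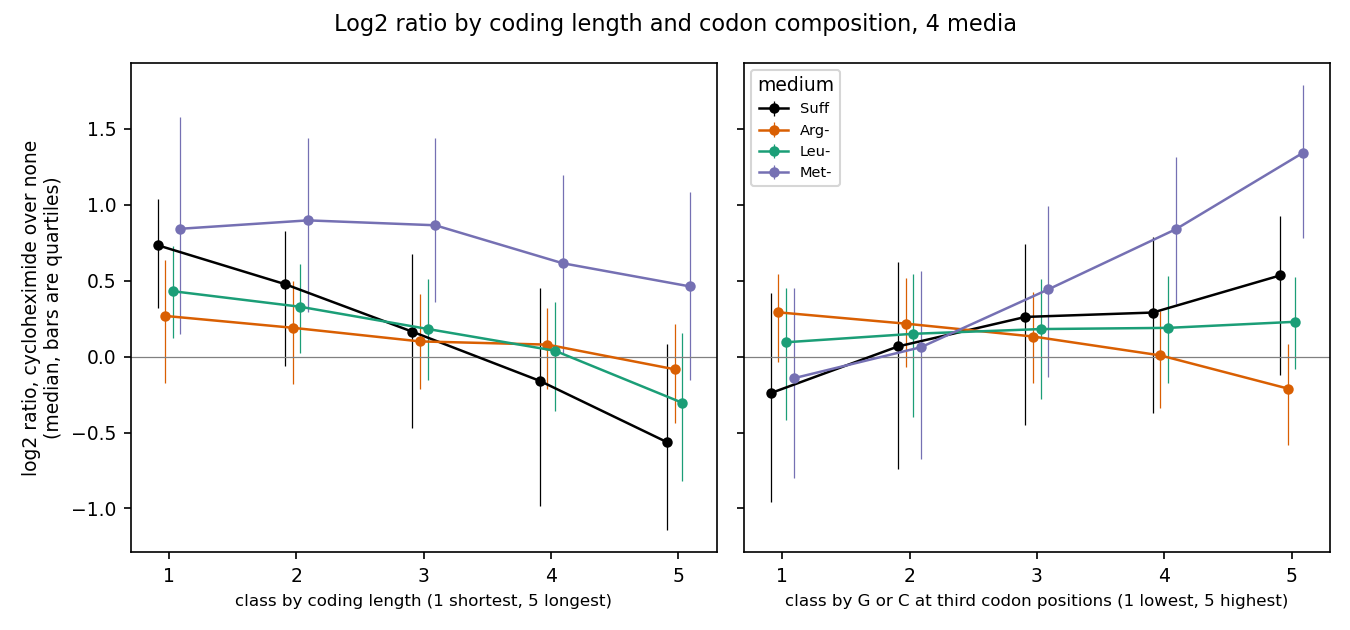
Median log2 ratio of cycloheximide over none (y axis, bars are quartiles over transcripts) in 5 equal classes of unique transcripts by coding length (left) and by the share of G or C at codon position 3 (right), for the 4 media with 1 pair of libraries each. In Suff the median falls from 0.73 to −0.56 with length. With G or C it rises in Suff and Met- and falls in Arg-.

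The pairs in the starved media use other libraries and so bear on the sufficient pair without sharing any with it. Over transcripts listed in both, rho between log2 ratios was 0.74 with Leu- (n = 3701), 0.49 with Met- (n = 1384) and 0.40 with Arg- (n = 3589). The pairs share their series' processing and coding lengths. The spread was widest in Suff among the deeper pairs. The transcripts were chosen by their values in Suff, however. Its library with cycloheximide held 2560280 reads, against 5010210 in Arg- and 6434043 in Leu-. The part of selection and depth in the spread was not tested. At least 2-fold higher or lower were 4.18% and 4.76% of the same transcripts in Arg-, 5.73% and 7.43% in Leu-, and 38% and 6.07% in Met-, whose library with cycloheximide held 538222 reads and 2045 transcripts.

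The starved pairs allowed a test of the series with cycloheximide against the series without it, with the medium as a block. Drug and processing differ together in every pair, so this test cannot tell them apart. In limma with Benjamini-Hochberg adjustment over 1464 transcripts listed in all 6 starved libraries, 20 were higher with cycloheximide (1.37%) and 25 lower (1.71%) at an adjusted p under 0.05. Each medium had 1 library with and 1 without the drug, so the p-values measure the spread of the difference between media. Being listed in Met- with cycloheximide took at least 64 of 538222 reads. A transcript with too low a level there without the drug entered the fit only if it was higher with it. The same cutoff held in Suff, so it can bear on the higher calls and on their match with Suff. The transcripts called were also displaced in the sufficient pair. All 20 higher ones were compared there and had a ratio above 0, with 18 at least 2-fold higher, and 24 of the 25 lower ones were compared, all below 0, with 22 at least 2-fold lower. Unique among them were 6 and 10. Unique transcripts that rose included PPIB, a proline isomerase of the endoplasmic reticulum (log2 change 1.44 ± 0.28 SE, adjusted p = 0.012 by limma, Suff 1977.6 and 579 RPKM), TIMM13, a mitochondrial import chaperone, and POLR3K, an RNA polymerase III subunit. Unique transcripts that fell included YBX1, which packages mRNA (−2.14 ± 0.30, adjusted p = 0.0021 by limma, Suff 173 and 1062 RPKM), HSP90AB1 (−2.20 ± 0.33, 0.0029), EEF1A1 (−2.17 ± 0.35, 0.0044), ATF4 (−1.74 ± 0.29, 0.0047) and HSPD1 (−1.80 ± 0.34, 0.011). Of the gene lists, 4 of 8 heat shock chaperones and 6 of 22 large subunit proteins fitted were called lower and none higher. Only 2 of those 4 (HSP90AB1 and HSPD1) and 1 of those 6 (RPL7A) were unique. None of 8 glycolytic enzymes was called. Leaving out the Met- pair, which let 4950 transcripts be fitted, gave 355 higher and 516 lower. Leaving out the Leu- pair gave 13 and 11.

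Most lists that were lower in the sufficient pair lay nearer 0 in the starved pairs. Glycolytic enzymes had a median of −2.77 in Suff against −0.43 in Arg-, −0.80 in Leu- and −0.44 in Met-. GAPDH was at −2.87 in Suff and at −0.71, −1.09 and −0.39 in the other media. Proteasome subunits were at −1.05 against 0.21, 0.01 and −0.05, splicing proteins at −1.16 against 0.02, −0.07 and 0.05, and synthetases at −1.29 against −0.07, −0.67 and −0.37. Heat shock chaperones were low in all media, at −2.16 against −0.31, −0.70 and −1.45. Histones were above 0 in all media, at 1.47 against 0.58, 1.13 and 0.74. Over all compared transcripts the medians were 0.21 in Suff and 0.09, 0.17 and 0.71 in Arg-, Leu- and Met-. In Met- the histone median, over 36 transcripts with a ratio, was therefore near that of all transcripts. Mitochondrially encoded transcripts were at 1.99 against 0.67 and 0.05 in Arg- and Leu-, and a single one had a ratio in Met-. MT-ND5 was at 3.61, 2.55 and 2.56 in Suff, Arg- and Leu-. In Met- without the drug MT-ND5 was at 80.9 RPKM and MT-CO2 at 212, and neither was listed there with the drug. MT-CO1 was at 1.10 in Suff and at −0.54, −1.11 and −1.30 in Arg-, Leu- and Met-.

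**Figure D4:**
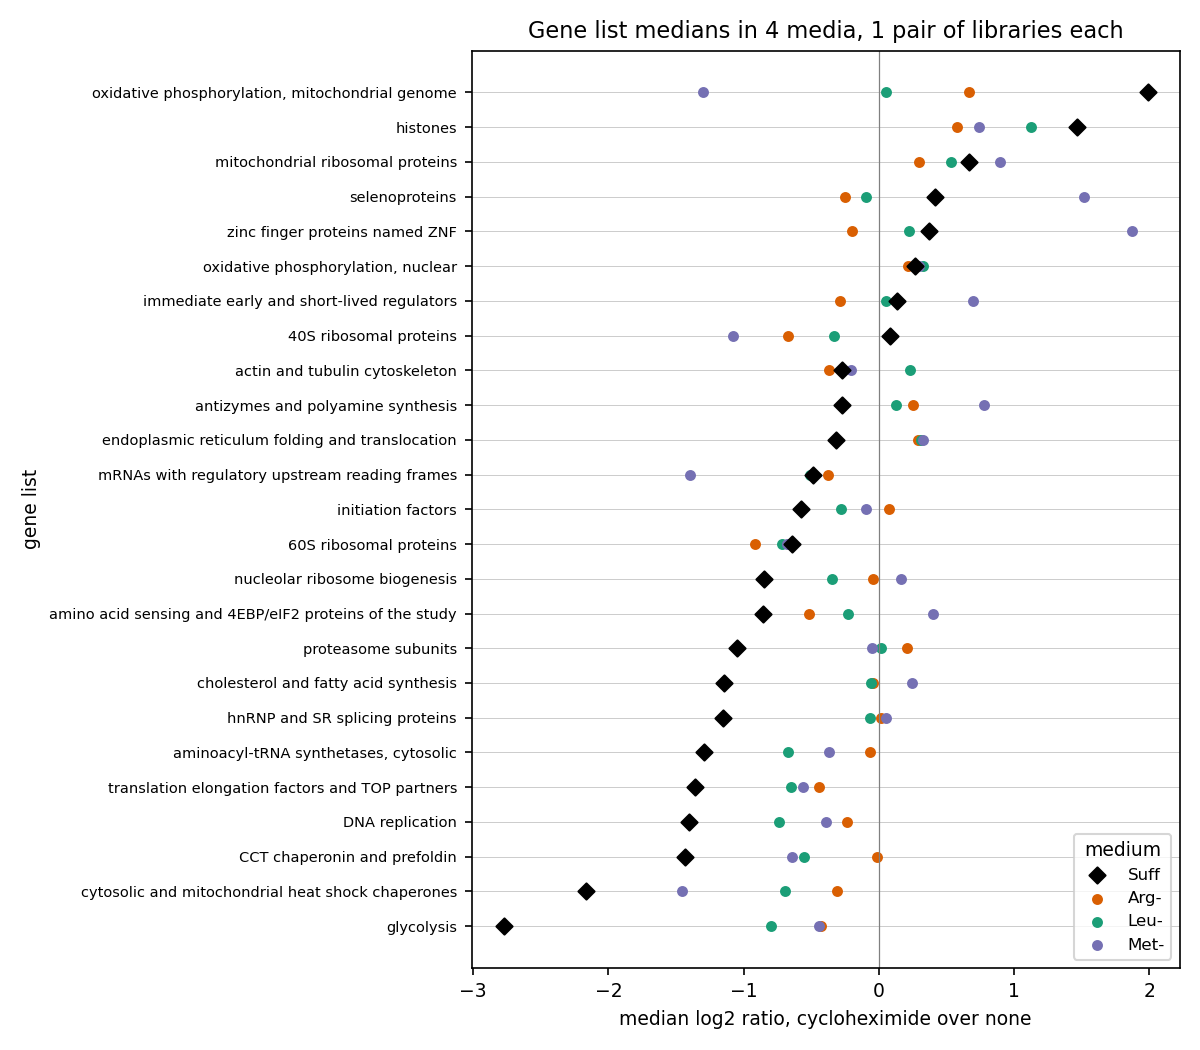
Median log2 ratio of cycloheximide over none (x axis) of 25 gene lists (y axis) in Suff (black diamonds) and in Arg-, Leu- and Met- (circles), 1 pair of libraries per medium. Glycolysis, proteasome, splicing and aminoacyl-tRNA synthetase lists lie lower in Suff than in each starved medium, and histones lie above 0 in all 4.

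The difference between the sufficient and starved ratios was fitted with limma on the 4 log2 ratios of each of 1375 transcripts listed in all 8 libraries, which assumes that the lone sufficient ratio varies like those of the 3 starved media. No transcript passed after Benjamini-Hochberg adjustment (0.0% higher and 0.0% lower), and at an unadjusted p under 0.05 there were 1 higher and 62 lower in Suff, 63 in all where 68.8 would be met if nothing differed. The cutoff in the Met- library with cycloheximide also admitted transcripts of low level only with a high ratio there, which can shape the split between higher and lower. With 1 ratio against 3 little could pass, so this fit neither shows a difference nor shows that there was none.

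Some transcripts with few reads without the drug were far higher with it, and 5 are named here after their values were seen. COL1A1, the collagen I chain, was at 20.2 RPKM with the drug and 1.59 without it, 12.7-fold higher (8.16 to 20.6). ACTG2, smooth muscle actin, was at 32.9 and 1.41, CCN2, a matrix-associated growth regulator, at 25.7 and 2.73, PHLDA2 at 99.4 and 13.2 and DUSP2, a phosphatase, at 28.2 and 2.70. Their reads without cycloheximide were 22, 5, 9, 19 and 8, in that order. COL1A1, CCN2 and PHLDA2 were listed in no starved library with cycloheximide, while ACTG2 was listed in those of Arg- and Leu- and DUSP2 in those of all 3. TAGLN, an actin-binding protein of smooth muscle, at 57.6 RPKM and S100A6 at 96.9 were the 2 genes listed in Suff CHX and in none of the other 7 libraries. The other 2 fibroblast markers, COL1A2 and DCN, were listed in no library. The part of cells of another kind was not tested, nor was a difference between the cultures behind the sufficient libraries, which would touch every ratio given here.

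Transcripts listed in 1 library only could not be given a ratio. Of 7529 listed without cycloheximide only, 1336 belonged to genes listed with it under another transcript and 5942 to genes not listed. For 4581 of the latter the level without the drug would have given under 64 reads with it, so their absence was not informative at this depth. For 1336 it would have given at least 64 reads and for 94 at least 4 times as many. Among these 94, MCM7, a replicative helicase subunit, at 235 RPKM without the drug was at least 20.6-fold lower, and PSMD2, a proteasome subunit, at 109 RPKM at least 12.1-fold lower, taking 63 reads as the most that could go unlisted. Neither was listed at this identifier in Arg- or Leu- with cycloheximide, so a reference without these transcripts cannot be told apart from a lower level. The reference did hold 26 of the 94, which were listed with cycloheximide in Arg- or Leu-, 20 of them in both. TUBA1B, an alpha tubulin, at 465 RPKM without the drug in Suff was at least 25.6-fold lower there, and was listed with it at 90.4 RPKM in Arg- and 73.3 in Leu-. SSB, the La protein that binds RNA polymerase III transcripts, at 310 RPKM was at least 15.4-fold lower, with 66.7 and 85.5 RPKM in Arg- and Leu-. SDHA, a subunit of respiratory complex II, at 115 RPKM was at least 9.32-fold lower, with 56.6 and 66.8 RPKM. Of 1727 listed with cycloheximide only, 1500 belonged to genes listed without it under another transcript and 155 to genes not listed. RPL41, the smallest ribosomal protein, at 30096 RPKM was the highest of these, and no library without cycloheximide listed it.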

How the data were processed

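Footprints of HEK293T cells were sequenced in 8 libraries, 1 per condition. The authors trimmed adaptors, kept reads of 25 to 35 bases, aligned them with Bowtie without mismatches to the human transcriptome (GRCh38), kept unique reads, and deposited RPKM per Ensembl transcript. The submitters' processing notes also name cutadapt. According to the file names, duplicates were removed in the series without cycloheximide. The annotation release is not given in the sources used here. Transcripts were matched to GENCODE 44 (GRCh38), which named 3642 of the 3729 compared. The reads behind the deposited RPKM were recovered from whole steps of RPKM times coding length (tolerance 0.01 of a read, 97.2% to 97.4% of matched transcripts per library), excluding the stop codon with cycloheximide and including it without. The recovery and the limma fit were tested on simulated data.

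The pseudocount was 1, transcripts needed a mean RPKM of 10, and differences were counted from 2-fold. limma 3.58.1 in R 4.3.3 (empirical Bayes with trend; without it for the 4 ratios) fitted log2(RPKM + 1), whose fold changes understate those of low transcripts. Python 3.11.15, pandas 2.3.3 and scipy 1.17.1 did the rest. The transcripts compared and the gene lists were chosen with earlier results of these data known. Named were the 12 highest and 12 lowest with at least 64 reads in both libraries and the same sign in Arg- and Leu-, the 12 with the highest mean, the ends of each list, genes the study discusses, and others said to be chosen later. That rule was repeated on unique transcripts after seeing the data.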

Additional observations from a re-analysis of the deposited data

Results flagged for a closer look

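For 6 transcripts named or listed above and present in all 8 libraries, the sufficient pair differed by at least 2-fold in one direction and every starved pair went the other way. These differences were not established by a test, since the sufficient medium gave 1 ratio. CANX, a chaperone of the endoplasmic reticulum, had a log2 ratio of −1.61 in Suff and of 0.39, 0.06 and 0.27 in Arg-, Leu- and Met-. ATP5F1B, the catalytic subunit of ATP synthase, was at −1.32 against 0.17, 0.36 and 0.24. The proteasome ATPases PSMC3 and PSMC4 were at −1.28 and −1.28, against values from 0.02 to 1.46 and from 0.08 to 0.25. MRPS18B, a mitochondrial ribosomal protein, was at −1.04 against 0.37, 0.19 and 0.46. MT-CO1 was the one in the other direction, at 1.10 against −0.54, −1.11 and −1.30. Over the 1368 compared transcripts present in all 8 libraries, 16 of the 285 that were at least 2-fold lower in Suff were above 0 in every starved pair, and 1 of the 192 higher ones was below 0 in every starved pair.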

How the results depend on the processing

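The counts of 511 higher and 605 lower transcripts stayed within 1.5 times with a pseudocount of 0.1, no minimum RPKM, one coding length for both series, at least 64 reads in both, and unique transcripts. With at least 64 reads in both libraries they were 361 and 574. The count of higher transcripts moved to 291 when centred, 184 when rescaled to equal sums and 777 with the highest transcript of each gene matched by symbol. The count of lower transcripts moved to 372 with a mean RPKM of at least 50. Among the 1305 well-covered transcripts, a set added after seeing the data, 130 were higher and 435 lower. Counting transcripts of 1 library as 0 in the other gave 2009 higher and 2746 lower. The overall median of 0.21 moved to −0.15 when rescaled. Of 25 gene list medians under 9 settings, 209 of 225 values moved by less than the SD over the 4 media and none of at least 2-fold reversed. SEC61B, EIF3K, ATP5F1D and COX4I1 reversed to 0.90, 0.37, 0.98 and 0.29 when the highest transcript of each gene was taken. The cause was not tested. The limma calls in starved media (20 higher, 25 lower) ranged from 13 to 355 and from 11 to 516 when a medium was left out, and became 55 and 54 with the sufficient pair added, 10 and 14 without trend, 9 and 10 without the medium block, and 12 higher when each library was centred.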

Other observations

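Read density set a further limit on how the series compare. Reads of 25 to 35 bases have 11 lengths, so removing duplicates by position and length would leave at most 11 reads per base of coding sequence. In the Suff no CHX library 61 transcripts exceeded 11 recovered reads per base, with a highest value of 26.6 for H3C2, against 57 transcripts and a highest value of 74.1 for RPL41 with cycloheximide. What the removal of duplicates compared was not stated. A single gene held several transcripts in the Suff CHX library in 163 cases and in the Suff no CHX library in 2.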
